A study of Mus with 6 samples.

Results

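Sprouty and SPRED proteins are inhibitors of receptor tyrosine kinase signalling, and 5 of their genes, Spry1, Spry2, Spry4, Spred1 and Spred2, were followed here in lens epithelial cells (LECs). The genes were picked by name, as the rows of their Ensembl identifiers in the count files, and they are 5 of the 55421 genes counted. The RNAseq profiled LECs of wild type C57BL/6 mice, still attached to the lens capsule, either directly after surgical removal of the fiber cells (0 h post cataract surgery, PCS) or 6 h after it. There were 3 libraries per time point, each made from a pool of 5 capsules, and no group carried a transgene or a deletion. The sample labels put the mice at 2 months of age, while the methods of the paper give an older age, and both sexes were used. In each mouse one eye was operated on first and the second eye 6 h later, with both capsules collected together, so pools of both time points can share mice, although the labels do not say which ones do.

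Fibroblast growth factors (FGFs) bind FGF receptors together with heparan sulphate and switch on the relay from RAS through RAF and MEK to the kinase ERK. ERK activity then raises the transcription of its own inhibitors, among them the Sprouty genes, which forms a negative feedback loop. Sprouty proteins act between the receptor and RAF, whereas SPRED proteins share the cysteine-rich Sprouty domain, carry an EVH1 domain in addition, and recruit neurofibromin, the protein that inactivates RAS. In the lens, FGF sustains the epithelium and drives its conversion into fiber cells, and Sprouty genes are known as antagonists of this signal in the epithelium.

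The libraries held between 18039974 and 24701039 read pairs counted on genes, and every library had between 31 and 2096 counts for each of the 5 genes. All 5 passed the low-count filter, as did 16810 genes in total. Levels are given as CPM, the counts of a gene in every 1000000 counts of a library, scaled with the TMM factors of edgeR, as mean ± SD over 3 libraries, and a differentially expressed gene (DEG) had a Benjamini-Hochberg (BH) adjusted p that did not exceed 0.05 together with a fold change above 2. Pax6, Foxe3, Sox2 and Epha2, genes of the lens epithelium, summed to between 678 and 875 CPM at 0 h PCS and between 621 and 796 CPM at 6 h PCS, and each was counted in all 6 libraries. Epha2 was an upregulated DEG, whereas Sox2 went from 54.4 ± 3.68 to 33.5 ± 3.28 CPM (SD, n = 3) with all 6 h libraries below all 0 h libraries and passed the adjusted p but not the fold limit (log2 fold change −0.70, BH-adjusted p = 0.0151 in the edgeR fit). Pax6 (log2 fold change −0.51) and Foxe3 (0.28) did not pass the adjusted p. The other lens epithelial markers, Cdh1, Six3, Cryab and Cryaa, were not analysed here. In pools of whole capsules, more cells of a type and more RNA per cell cannot be told apart.

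All 5 genes had higher levels at 6 h PCS than at 0 h PCS, and in each of them every 6 h library lay above every 0 h library, a pattern found in 15.3% of the genes tested. Spry2 and Spry1 were upregulated DEGs, by 3.93-fold and 2.87-fold. Spry4 was at 2.99 times its starting level but missed the threshold, and the 2 SPRED genes stayed below a fold change of 2, at 1.57 for Spred1 and 1.29 for Spred2. Upregulated DEGs therefore made up 2 of the 5 genes against 4.53% of all genes tested, and DEGs in either direction were 5.35% of all genes. Without the fold limit, 3 of the 5 genes (Spry1, Spry2 and Spred1) passed the adjusted p, where 6.31% of all genes did so with a higher level at 6 h PCS.

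**Figure D1:**
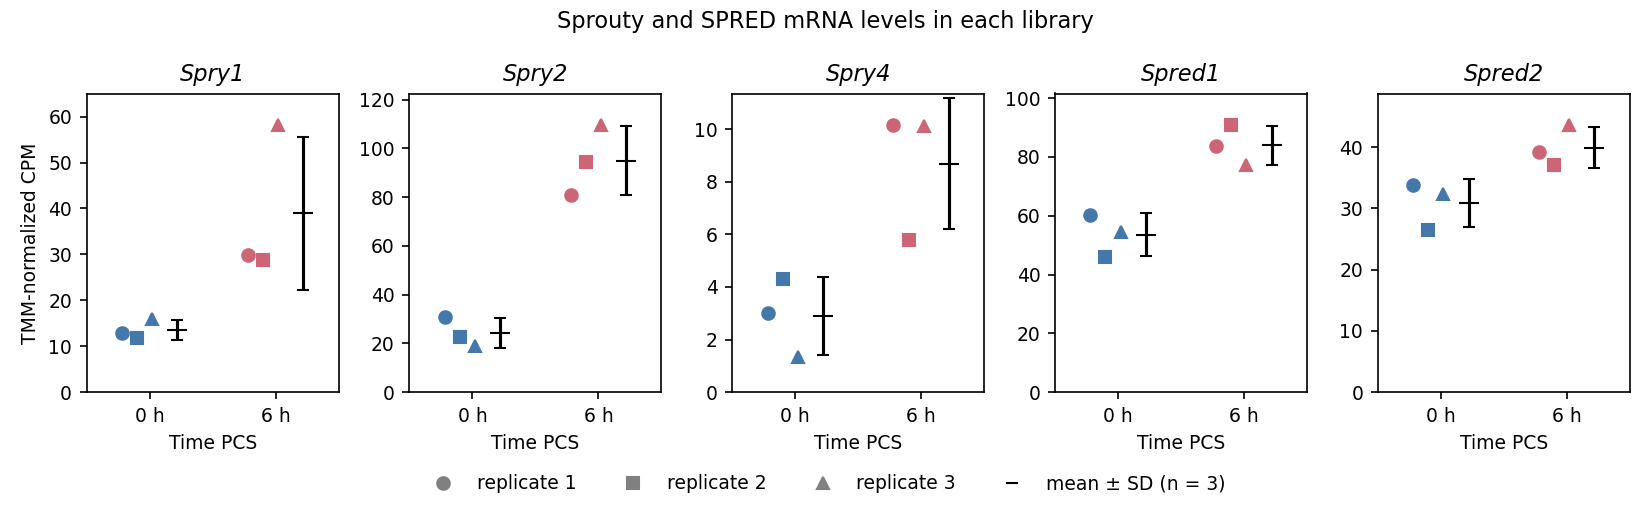
TMM-normalized CPM (y axis, linear and from 0, with its own range in each panel) of the 5 genes at 0 h and 6 h PCS. Each symbol is 1 library, its shape gives the replicate number, and the bar beside each group is the mean ± SD of 3 libraries. In each panel the symbols at 6 h lie above those at 0 h, with the widest gap relative to the level in Spry2 and the narrowest in Spred2.

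Spry2 (ENSMUSG00000022114) lies on chromosome 14 of GRCm38 from 105891947 to 105896819 and encodes a Sprouty protein that is a standard readout of ERK activity. Its libraries held 30.9, 22.7 and 18.9 CPM at 0 h and 81.0, 94.3 and 109 CPM at 6 h. The lowest library at 6 h PCS was thus at 2.62 times the highest at 0 h PCS, the widest separation among the 5 genes. The level rose from 24.2 ± 6.17 to 94.9 ± 14.2 CPM (SD over n = 3 libraries), which is a log2 fold change of 1.97 (standard error 0.203, 95% interval 1.52 to 2.43, BH-adjusted p = 0.000494 in the edgeR quasi-likelihood fit). Spry2 was called in each of the 6 fits that left out 1 library and in each of the 10 other alternatives, including the test against a fold change of 2 (glmTreat), where its BH-adjusted p in edgeR was 0.0102 and over the other alternatives between 6.85e-25 and 0.00106. By log2 fold change it ranked 621 among the 16810 genes.

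Spry1 (ENSMUSG00000037211), the closely related Sprouty gene on chromosome 3 from 37639947 to 37644599, held 13.0, 11.8 and 15.9 CPM at 0 h and 29.8, 28.9 and 58.1 CPM at 6 h. The groups did not overlap, and 6 h replicate 3 stood at about 2.01 times the lowest library of its group. The level rose from 13.6 ± 2.13 to 38.9 ± 16.6 CPM (SD over n = 3 libraries), which is a log2 fold change of 1.52 (standard error 0.280, 95% interval 0.89 to 2.15, BH-adjusted p = 0.0104 in the edgeR quasi-likelihood fit). Without 6 h replicate 3 the log2 fold change was 1.11 and the gene was still a DEG, whereas without 0 h replicate 1 the log2 fold change of 1.48 no longer passed (BH-adjusted p = 0.0601 in the edgeR fit, range over the 6 left-out libraries 0.0125 to 0.0601). The test against a fold change of 2 (glmTreat) also ended the call of Spry1 (BH-adjusted p = 0.353 in edgeR, against 7.59e-11 to 0.0189 over the 9 other alternatives).

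Spry4 (ENSMUSG00000024427), a Sprouty gene on chromosome 18 from 38586247 to 38601347, had the fewest reads, with 70, 118 and 31 counts at 0 h PCS and 151, 129 and 168 counts at 6 h PCS. The counting error alone of the 31 counts spans 21.1 to 44.0 (95% exact Poisson interval). In CPM the libraries were at 3.01, 4.30 and 1.34 at 0 h and at 10.1, 5.80 and 10.1 at 6 h. The groups did not overlap, but the 0 h libraries differed from each other by up to 3.21 times, more than in any other of the 5 genes. The level was 2.88 ± 1.49 CPM at 0 h and 8.69 ± 2.50 CPM at 6 h (SD over n = 3 libraries), which is a log2 fold change of 1.58 (standard error 0.435, 95% interval 0.61 to 2.55) whose BH-adjusted p of 0.0533 in the edgeR quasi-likelihood fit lay just above the limit. The call turned on the method, since Spry4 was a DEG in 6 of 10 alternatives, among them DESeq2 (BH-adjusted p = 0.00586) and the exact test of edgeR (BH-adjusted p = 0.0110), and over the 9 alternatives other than glmTreat the adjusted p ran from 0.000677 to 0.0622. Of the fits that left out 1 library, only the fit without 0 h replicate 2, the highest library of its group, made the call (log2 fold change 1.99).

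Spred1 (ENSMUSG00000027351), whose product brings neurofibromin to the membrane, spans chromosome 2 from 117121071 to 117182279. It held 60.4, 45.9 and 54.4 CPM at 0 h and 83.8, 90.7 and 77.4 CPM at 6 h. The groups were separate and tight, with a highest library at 6 h PCS of only 1.17 times the lowest. The level went from 53.5 ± 7.28 to 84.0 ± 6.65 CPM (SD over n = 3 libraries), which is a log2 fold change of 0.65 (standard error 0.147, 95% interval 0.32 to 0.98, BH-adjusted p = 0.0245 in the edgeR quasi-likelihood fit), so the change passed the adjusted p but its whole interval lay below a fold change of 2. The adjusted p was lost in 4 of the 6 fits that left out 1 library, namely without 0 h replicate 1 (0.0600), 0 h replicate 2 (0.0875), 0 h replicate 3 (0.0855) and, at 6 h, replicate 2 (0.0861, all BH-adjusted p in edgeR). When the libraries were scaled on their size alone, the log2 fold change was 0.34 and the adjusted p 0.191 in edgeR.

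Spred2 (ENSMUSG00000045671), the second SPRED gene, spans chromosome 11 from 19924442 to 20024026. Its libraries were at 33.9, 26.5 and 32.4 CPM at 0 h and at 39.2, 37.1 and 43.6 CPM at 6 h, with the lowest library at 6 h PCS only 1.09 times the highest at 0 h PCS. The means were 30.9 ± 3.93 and 39.9 ± 3.31 CPM (SD, n = 3), and the log2 fold change of 0.37 (standard error 0.157, 95% interval 0.02 to 0.72, BH-adjusted p = 0.190 in the edgeR quasi-likelihood fit) was not called. With scaling on library size alone its log2 fold change was 0.05, the libraries of the time points overlapped, at 29.4 to 37.0 and 32.4 to 38.2 unscaled CPM, and the adjusted p was 0.864 in edgeR. Over all genes that scaling moved the median log2 fold change to −0.32.

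The third SPRED gene, Spred3, was at 8.73 ± 2.35 CPM at 0 h and 13.2 ± 1.41 CPM at 6 h (SD over n = 3 libraries), which is a log2 fold change of 0.60 (standard error 0.246, BH-adjusted p = 0.178 in the edgeR fit) that was not called. Spry3 was not analysed here.

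Because the library scaling moved the fold changes, the genes were also compared with each other inside each library, where scaling cancels. The ratio of Spry2 to Spred2 counts was 0.912, 0.858 and 0.583 at 0 h PCS and 2.07, 2.54 and 2.51 at 6 h PCS. The lowest ratio at 6 h was thus above the highest at 0 h by more than a factor of 2, and the mean log2 ratios differed by 1.62. The ratio of Spry2 to Spred1 counts went from 0.512, 0.495 and 0.347 to 0.966, 1.04 and 1.41, a difference of 1.34 in the log2 ratio. Spry1 differed in the same direction against both SPRED genes, by 0.80 against Spred1 and by 1.08 against Spred2 on the log2 scale. Without 6 h replicate 3 the difference against Spred1 was 0.41. These 4 pairs were the ones whose 3 ratios at 6 h PCS all lay above the 3 at 0 h PCS, each with p = 0.10 in the exact two-sided permutation test over libraries, the smallest p that 3 libraries against 3 allow, and 0.25 after Benjamini-Hochberg adjustment over the 10 pairs. The 2 pairs of Spry4 with a SPRED gene (differences of 1.05 and 1.33, exact permutation p = 0.20) overlapped between the times, and without 0 h replicate 3 their differences were 0.55 and 0.81. The 3 pairs within the Sprouty genes also overlapped, with differences between −0.54 and 0.29. The log2 ratio of Spred1 to Spred2 differed by 0.28 (exact permutation p = 0.20).

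The make-up of the summed counts followed these ratios. Summed over the 5 genes, the level was between 111 and 141 CPM at 0 h PCS and between 244 and 299 CPM at 6 h PCS. The 3 Sprouty genes held 33.2%, 34.9% and 29.4% of the summed counts in the 0 h libraries and 49.6%, 50.2% and 59.5% in the 6 h libraries. Most of this was Spry2, whose share went from 19.2 ± 3.44% to 35.5 ± 2.01% (SD, n = 3), while Spred1 went from 42.8 ± 1.49% to 31.9 ± 5.17% and Spred2 held between 23.8% and 26.3% in the 0 h libraries against between 14.4% and 16.1% in the 6 h libraries. With TMM scaling both SPRED genes had higher CPM at 6 h PCS, so their smaller shares are shares of a larger total. With library size scaling their log2 fold changes were 0.34 for Spred1 and 0.05 for Spred2. Neither then passed the adjusted p (0.191 and 0.864 in edgeR). Spry4 took 1.09% to 4.15% of the counts of a library.

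**Figure D2:**
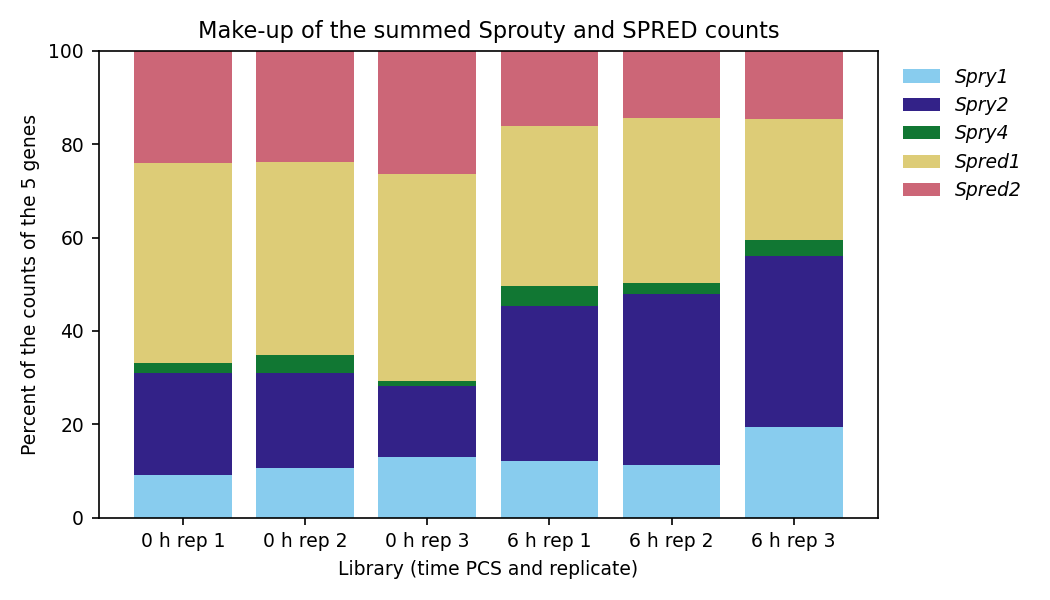
Share of the summed counts of the 5 genes (y axis, percent) taken by each gene in each of the 6 libraries (x axis, time PCS and replicate), stacked from Spry1 at the bottom to Spred2 at the top. The Sprouty part ends between 29.4% and 34.9% in the 0 h libraries and between 49.6% and 59.5% in the 6 h libraries. Counts are not corrected for gene length, so the bars compare times and not genes.

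Levels of different genes can be compared only per length, and exon lengths were at hand for 4 of the 5 genes, all but Spred2. In fragments per kilobase and 1000000 counts (FPKM, computed on the total gene counts without TMM factors), the order at 0 h PCS was Spry2 with 12.9 ± 2.99, Spred1 with 8.79 ± 1.14, Spry1 with 5.21 ± 0.930 and Spry4 with 0.672 ± 0.342 FPKM (SD, n = 3). No neighbours in that order overlapped between their libraries, although the lowest library of Spry2 (10.3 FPKM) was close to the highest of Spred1 (9.70 FPKM). At 6 h PCS Spry2 led with 40.9 ± 7.66 FPKM (SD, n = 3), and its lowest library, at 32.1 FPKM, was above every library of the other 3 genes. Spry1 with 11.9 ± 4.87 FPKM and Spred1 with 11.1 ± 1.80 FPKM (SD, n = 3) could no longer be ranked, because their libraries overlapped. Spry4 stayed last at 1.61 ± 0.354 FPKM (SD, n = 3). The means of Spry2, Spry1 and Spred1 differed by 28.0, 6.72 and 2.34 FPKM, and the DEGs Spry2 and Spry1 also met the study's limit for biological significance, a level in either condition and a difference of at least 2 FPKM. Spry4 was below 2 FPKM at both times.

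The surrounding pathway was read from 7 lists with 90 gene symbols, of which 38 could be matched to an Ensembl identifier and all 38 were tested. The lists were not covered alike. Matches were found for 6 of 22 FGF genes, 2 of 7 receptor genes, 5 of 14 heparan sulphate genes and 4 of 19 relay genes. For partners they were 3 of 9, for other feedback inhibitors 8 of 8 and for ERK target genes 11 of 12. Counts of DEGs therefore cannot be compared between lists. The symbols at hand lean towards changed genes: of 6373 tested genes with a symbol 11.6% were upregulated DEGs, against the 4.53% of all genes given above. Of the 38 pathway genes, 11 were upregulated DEGs and 0 were downregulated DEGs (0.821% of all genes tested were downregulated DEGs), with 27 not called and a median log2 fold change of 0.85, where the median was 0.19 over the tested genes with a symbol and close to 0 over all genes. At an unadjusted p below 0.05, 25 were higher and 2 (Etv1 and Etv5) lower, and DESeq2 called 16 upregulated and 0 downregulated.

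Ligands and receptors came first in the pathway. Of the 6 FGF genes at hand 0 were DEGs in edgeR, 1 (Fgf2) had an unadjusted p below 0.05 and the same 1 was called in DESeq2. Fgf1, a ligand of all FGF receptors, was at 38.5 ± 7.24 and 29.5 ± 13.7 CPM (SD, n = 3), with overlapping groups and a log2 fold change of −0.38 (standard error 0.303). Fgf2, the ligand best known for driving fiber differentiation, was at 5.91 ± 2.55 CPM at 0 h and 12.6 ± 0.995 CPM at 6 h (SD, n = 3), with separate groups and a log2 fold change of 1.09 that missed the adjusted p (0.0588 in the edgeR fit) and was called without 0 h replicate 2 (log2 fold change 1.50). Fgf12, which encodes an intracellular FGF homologous factor and no receptor ligand, was at 24.2 ± 3.95 and 16.8 ± 10.6 CPM (SD, n = 3), overlapping, and was lower and called only without 6 h replicate 3 (log2 fold change −1.17). Both receptor genes at hand had separate groups. Fgfr1 held 241, 192 and 257 CPM at 0 h and 452, 394 and 461 CPM at 6 h, a log2 fold change of 0.92 (standard error 0.153, BH-adjusted p = 0.00598 in the edgeR fit) that passed the adjusted p but not the fold limit, except without 0 h replicate 3, where it was 1.00 and called. Fgfr2 held 286, 231 and 354 CPM against 498, 375 and 519 CPM, a log2 fold change of 0.68 (BH-adjusted p = 0.0576 in the edgeR fit). Fgfr3, Fgfr4 and Fgfrl1 were not analysed here.

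Of 5 tested genes of heparan sulphate, the co-receptor of FGF, 2 were upregulated DEGs, both for core proteins of its proteoglycans. Gpc1, which encodes glypican-1, rose from 48.7 ± 8.69 to 146 ± 36.8 CPM (SD over n = 3 libraries), which is a log2 fold change of 1.59 (standard error 0.205, BH-adjusted p = 0.00167 in the edgeR fit). Sdc4, which encodes syndecan-4, rose from 354 ± 67.9 to 824 ± 106 CPM (SD over n = 3 libraries), which is a log2 fold change of 1.22 (BH-adjusted p = 0.00307 in the edgeR fit), and was below the fold limit with library size scaling (0.90). The proteoglycan gene Sdc1 and the genes of the modifying enzymes Glce and Hs2st1 were not called, with log2 fold changes of 0.10, −0.09 and 0.67. Hs2st1 had separate groups and passed the adjusted p (0.0267 in the edgeR fit) but not the fold limit. Of the relay genes at hand, 0 of 4 were DEGs by the edgeR test or by DESeq2, and 2 had an unadjusted p below 0.05. Grb2, the adaptor that Sprouty proteins can bind, had separate groups and a log2 fold change of 0.82 (BH-adjusted p = 0.00933 in the edgeR fit), below the fold limit. Ksr1, a scaffold of the relay, had a log2 fold change of 0.57 and was not called. Sos1, the exchange factor that loads RAS, was the one relay gene with lower levels in all 3 libraries at 6 h PCS, with a log2 fold change of −0.31 (BH-adjusted p = 0.239 in the edgeR fit), and it is named because of its values.

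Among the partners of Sprouty and SPRED proteins, Siah2, a ubiquitin ligase that targets Sprouty proteins for degradation, held 4.30, 4.77 and 2.81 CPM at 0 h and 12.1, 10.2 and 14.1 CPM at 6 h. It was an upregulated DEG with a log2 fold change of 1.61 (standard error 0.286, BH-adjusted p = 0.00834 in the edgeR fit). Tesk1 and Dyrk1a, kinases that interact with Sprouty proteins, were not called, with log2 fold changes of 0.65 and 0.50. Dyrk1a passed the adjusted p (0.0484 in the edgeR fit) but not the fold limit, whereas Tesk1 missed the adjusted p (0.0642 in the same fit). Nf1, the gene for neurofibromin, was not analysed here.

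Of the other feedback inhibitors, 4 of 8 were upregulated DEGs. These were 3 phosphatase genes that act on MAP kinases, Dusp5, Dusp4 and Dusp6, and Errfi1, an inhibitor of the EGF receptor, with log2 fold changes of 3.12, 2.73, 1.85 and 2.22. Dusp6, like Spry2 a common readout of FGF signalling, held between 11.8 and 15.8 CPM at 0 h and between 41.4 and 56.4 CPM at 6 h (BH-adjusted p = 0.000483 in the edgeR fit). Its log2 fold change differed from that of Spry2 by less than the standard error of either. Not called in edgeR were Socs3 (log2 fold change 3.19, standard error 0.735), Rasa2 (0.89) and Lrig1 (0.36), of which Socs3 was called in DESeq2 and without 0 h replicate 1, with log2 fold changes from 2.78 to 4.03 over the 6 fits with 1 library left out. Rasa2 had separate groups and passed the adjusted p (0.00721 in the edgeR fit) but not the fold limit. Socs3 and Lrig1 missed the adjusted p (0.0712 and 0.194 in the same fit). Il17rd, which encodes the FGF receptor antagonist Sef and is named because of its values, was at 23.6 ± 4.93 and 22.7 ± 4.68 CPM (SD over n = 3 libraries), which is a log2 fold change of −0.06 (95% interval −0.53 to 0.42) whose sign changed with the library left out.

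ERK target genes differed in direction. Of 11 tested, 5 were upregulated DEGs, namely Ier3, Fosl1, Phlda1, Hbegf and Dusp6, with log2 fold changes between 1.85 and 3.32, and Fosl1 kept its call in 3 of the 6 fits with 1 library left out. Fos, Egr1 and Myc had log2 fold changes of 3.72, 3.60 and 2.20 but were not called (BH-adjusted p = 0.0599, 0.0602 and 0.0834 in the edgeR fit), although each was called in DESeq2 and without 1 of the 0 h libraries (replicate 1 for Fos and Myc, replicate 3 for Egr1). Over the 6 fits with 1 library left out their log2 fold changes ran from 3.32 to 4.68 for Fos, from 3.14 to 4.19 for Egr1 and from 1.85 to 2.86 for Myc. The ETS factors of the PEA3 group, which in many tissues are expressed together with Sprouty genes under FGF, had no higher levels at 6 h PCS. They are named because of their values. Etv5 held 59.5, 58.1 and 54.8 CPM at 0 h and 39.1, 39.1 and 40.4 CPM at 6 h, a log2 fold change of −0.54 (standard error 0.127, 95% interval −0.82 to −0.26, BH-adjusted p = 0.0292 in the edgeR fit). Etv1 held 20.6, 19.9 and 18.9 CPM against 10.9, 11.8 and 11.2 CPM, a log2 fold change of −0.81 (95% interval −1.20 to −0.42, BH-adjusted p = 0.0203 in the edgeR fit). Both fell by less than 2-fold with all 6 h libraries below all 0 h libraries, and with library size scaling Etv1 was a downregulated DEG (log2 fold change −1.11). Etv4 was scarce, at 2.30 ± 0.625 and 2.05 ± 0.763 CPM (SD, n = 3). Etv5 and Spry2 therefore moved in opposite directions between the same libraries under both scalings.

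**Figure D3:**
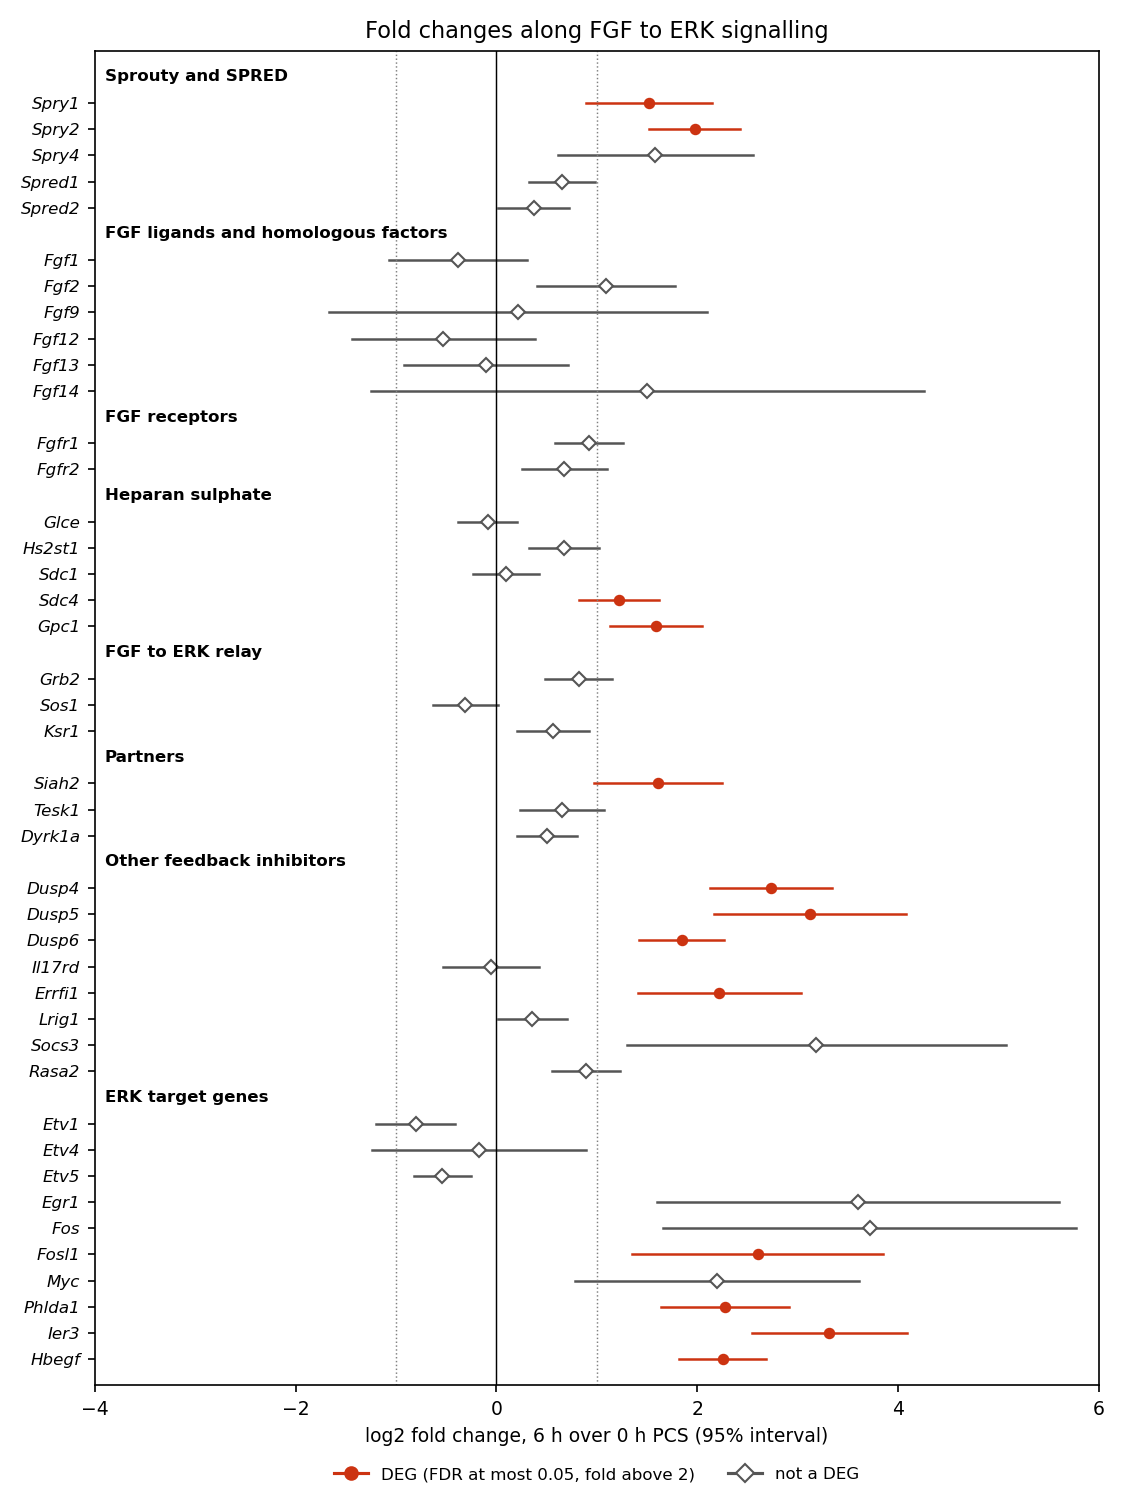
log2 fold change of 6 h over 0 h PCS (x axis, dotted lines at a fold change of 2) with its 95% interval for the 5 genes and for tested genes of the pathway lists, grouped by role, with Dusp6 drawn once. Filled circles are DEGs and open diamonds are not. The points of Spry1, Spry2 and Spry4 stand right of the upper dotted line, as do those of Dusp4, Dusp5 and Dusp6. The intervals of Spry1 (0.89 to 2.15) and Spry4 (0.61 to 2.55) cross that line, whereas those of Spry2 and the 3 Dusp genes do not. The intervals of Etv1 and Etv5 lie left of 0.

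Markers of some other cells in or around the eye also differed between the time points. The 5 erythrocyte genes were all upregulated DEGs, with a summed level of 7.94 to 19.5 CPM at 0 h PCS and 73.5 to 133 CPM at 6 h PCS. Of 7 leukocyte genes 2, Cd68 and Cd14, were upregulated DEGs, and the list summed to 14.8 to 24.0 CPM against 23.4 to 52.0 CPM. The 4 endothelial genes summed to 4.10 to 26.3 CPM against 20.0 to 36.9 CPM, with 0 called by the edgeR test, 2 at an unadjusted p below 0.05 and 2 called in DESeq2, and the 3 stromal genes to 82.3 to 116 CPM against 90.6 to 201 CPM. Of the stromal genes 0 were called in edgeR or DESeq2, and 1 (Dcn), with all 6 h libraries below all 0 h libraries, was lower at an unadjusted p below 0.05 (log2 fold change −1.52). The corneal keratins Krt12 and Krt5 were at 2.97 ± 3.54 and 3.44 ± 3.82 CPM at 0 h and at 55.4 ± 10.8 and 31.5 ± 6.71 CPM at 6 h (SD, n = 3). Both had all 6 h libraries above all 0 h libraries, and were called in DESeq2 but not in edgeR. Aldh3a1 went the other way, at 436 ± 77.3 and 279 ± 60.1 CPM (SD, n = 3), with all 6 h libraries below all 0 h libraries. The corneal list of 3 genes summed to 348 to 495 CPM against 318 to 451 CPM. Most of that sum was Aldh3a1, so it does not show the course of the keratins. At 6 h PCS the 4 pigment cell genes varied most among these lists, at 77.4 to 1965 CPM, against 51.4 to 209 CPM at 0 h PCS. Of these genes 0 were called in edgeR or DESeq2 and 0 had an unadjusted p below 0.05. Their sum was highest in 6 h replicate 3, the library in which Spry1, Spry2 and Spred2 were also highest. No marker at hand was at 0 in all libraries. The part of these cells in the levels of the Sprouty and SPRED genes was not tested. Without 6 h replicate 3 the log2 fold changes of Spry1 and Spry2 were 1.11 and 1.86, both still DEGs. That fit cannot answer the question, because 6 h replicates 1 and 2 also held such markers. In these libraries the erythrocyte genes summed to 73.5 and 133 CPM and the pigment cell genes to 77.4 and 456 CPM.

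The genes with the most similar course were found by the root mean square difference of mean-centred log2 CPM over the 6 libraries, among named genes with at least 1 CPM. Nearest to Spry2 were 2610306O10Rik (0.102), N4bp3 (0.149) and Ppp1r15a (0.163), with log2 fold changes of 2.26, 2.05 and 2.06. Nearest to Spry1 were Sema4c (0.120), Tap1 (0.128) and Gm45223 (0.131). Spry4 had no near match, with Slitrk2 (0.216), Pcdh1 (0.257) and Eps8 (0.266) closest. Spred1 was nearest to Ankrd13a (0.0600), Naf1 (0.0719) and Ube2f (0.0751), and Spred2 to Creb3l2 (0.0676), Lrig1 (0.0676) and Zeb2 (0.0707). Among the 5 genes themselves, Spred1 and Spred2 were the closest pair (0.195) and Spry4 and Spred2 the most distant (0.875), while Spry1 and Spry2 differed by 0.465. These distances describe 6 libraries and carry no test.

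The alternatives moved the Sprouty and SPRED genes to different extents. Over the 10 alternatives that kept all libraries, the log2 fold change of Spry2 lay between 1.67 and 1.99, that of Spry1 between 1.19 and 1.54, that of Spry4 between 1.25 and 1.67, that of Spred1 between 0.34 and 0.66 and that of Spred2 between 0.05 and 0.38. Spred1 and Spred2 were called in none of them and in none of the 6 fits without 1 library.

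**Figure D4:**
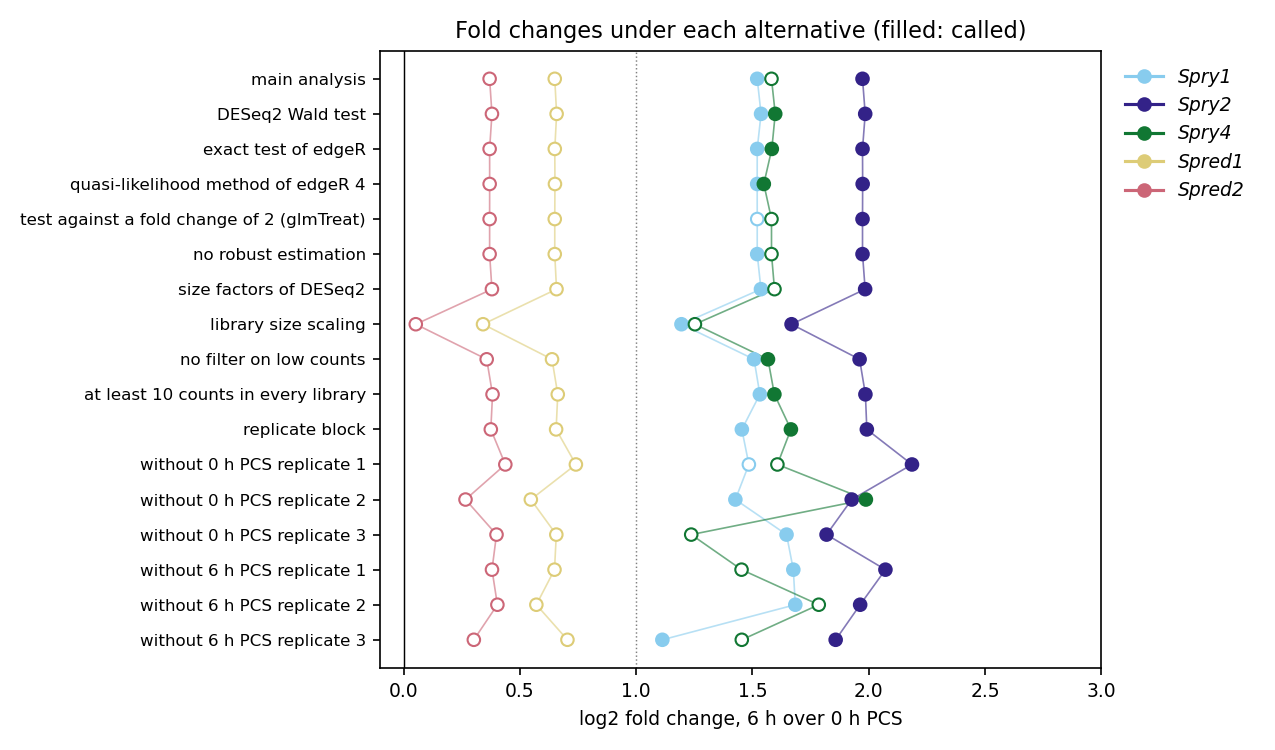
log2 fold change of 6 h over 0 h PCS (x axis, dotted line at a fold change of 2) for each of the 5 genes in the main analysis, the 10 alternatives and the 6 fits that left out 1 library (y axis). Filled circles are calls and open circles are not. Spry2 is filled throughout, Spry1 is open with glmTreat and without 0 h replicate 1, Spry4 alternates, and Spred1 and Spred2 are open throughout and lowest with library size scaling.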

How the data were processed

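Total RNA from pools of capsules was made into ribosome-depleted libraries with a stranded Pico kit and sequenced as read pairs. The authors used Hisat2 for alignment to GRCm38 and HTSeq in union mode for counting, and the deposited values are raw counts per Ensembl gene. The strand setting is not given in the sources used here. The 5 summary rows of HTSeq, 58.8% to 66.4% of the read pairs, were left out.

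The time points were compared with edgeR, as in the study, but in the later version 4.0.16 under R 4.3.3, with filterByExpr, TMM factors, robust dispersions and the quasi-likelihood F-test in its earlier form, with Benjamini-Hochberg adjustment over 16810 genes. Standard errors are the log2 fold change divided by the square root of F, and 95% intervals use the fitted degrees of freedom. The script was first checked on simulated counts. DESeq2 1.42.0 served as an alternative. FPKM values were computed here from the counts and the exon lengths of the study, on total gene counts. Counting intervals cover counting error only. Symbols came from supplementary tables and positions from RefSeq for GRCm38.p6, in which no other gene overlaps the 5 genes. Named pathway genes were, per list, up to 5 DEGs by fold change and 3 uncalled genes by level, unless stated otherwise. Members and lists were chosen with earlier results of these data known. Figures were drawn with matplotlib 3.10.9 in Python 3.11.15. Some genes of the lists are counted but not reported here by name.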

Additional observations from a re-analysis of the deposited data

How the results depend on the processing

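Spry2 kept its call under each of the 10 alternatives and each left-out library, and Spred1 and Spred2 were not called under any of them. The test against a fold change of 2 (glmTreat) left 1 of the 5 genes called, Spry2, ended the call of Spry1 (log2 fold change 1.52), and called 6 pathway genes, against 11, and 221 genes in all, while DESeq2 and the exact test each called 16 pathway genes and the fit with no robust estimation 15. Spry4 became a DEG with DESeq2 (log2 fold change 1.60), the exact test (1.58), the quasi-likelihood method of edgeR 4 (1.55), no low-count filter (1.57), at least 10 counts in every library (1.59) and the replicate block (1.67), which changed no other call among the 5 genes. The replicate numbers share no stated mice, and the main fit did not take them as pairs. Deviations of same-numbered libraries correlated at 0.00365, 0.223 and 0.139 across genes for replicates 1, 2 and 3. Crossing replicates 2 and 3 between the times gave −0.161 and −0.191, and crossings with replicate 1 gave −0.0343 to 0.0228. Replicates 2 and 3 thus correlated best with their own number, and replicate 1 did not. These correlations cannot decide whether the numbers are pairs, because the shared mice are not stated. The block raised all calls from 900 to 1050, and with it the BH-adjusted p of Spry1 in edgeR was 0.00110. Leaving out 1 library gave 1 to 3 called members, 1.11 to 1.68 for Spry1 and 1.24 to 1.99 for Spry4, and without 0 h replicate 1 there were 553 DEGs in all. Library size scaling turned the balance of 762 higher and 138 lower DEGs into 572 and 627. The cause of these changes was not tested. Spry4 rests on 31 to 168 counts per library. The difference in log2 ratio of Spry1 to Spry4 changed sign without 0 h replicate 3 (0.35) or 6 h replicate 1 (0.04), and that of Spry2 to Spry4 without 0 h replicate 2 (−0.10).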

Other observations

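Protein-coding neighbours of the 5 genes were looked up in the RefSeq annotation of GRCm38.p6, and 3 of the 10 could be matched to counts. Ndfip2, which encodes an adaptor of NEDD4 ubiquitin ligases and lies 582.6 kb before Spry2, was at 22.6 ± 3.07 CPM at 0 h and 39.7 ± 2.29 CPM at 6 h (SD over n = 3 libraries), which is a log2 fold change of 0.81 (standard error 0.159, BH-adjusted p = 0.0128 in the edgeR fit) that stayed below the fold limit. Fam98b, 67.4 kb after Spred1, and Meis1, a homeobox gene 904.8 kb before Spred2, had log2 fold changes of −0.18 and 0.15 with BH-adjusted p of 0.617 and 0.638 in the same edgeR fit. Arhgap26, which begins 270 bases after the end of Spry4, was not analysed here.

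Spred1 and Spred2 deviated from their group means in the same direction in each of the 3 libraries at 0 h PCS, by 0.18 and 0.14 in replicate 1, −0.21 and −0.22 in replicate 2 and 0.03 and 0.07 in replicate 3 on the log2 scale. At 6 h PCS this was not so, with 0.11 and −0.10 in replicate 2 and −0.11 and 0.13 in replicate 3. Spry4 deviated by 0.71 in 0 h replicate 2 and −0.91 in 0 h replicate 3, where Spry2 was at −0.06 and −0.33.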
